A study of Arabidopsis thaliana with 18 samples.

Results

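The embryo cuticle integrity signalling genes of Arabidopsis thaliana are 10 genes of a pathway that runs between the embryo and the endosperm, the tissue that surrounds it in the seed. They were chosen by identifier from a table of 27564 genes, and all 10 were found in it. The list puts 6 on the embryo side (GSO1, GSO2, TWS1, ACR4, ALE2 and DEK1) and 4 on the endosperm side (ALE1, ZOU, ICE1 and KRS). The members were measured in embryos isolated by hand at 6 stages with 3 libraries each, 18 in all: 2/4-cell, 8-cell, 16-cell, 32-cell, globular and heart. Plants were kept at 22 °C, lit for 16 h and dark for 8 h a day, and the labels give no accession, mutation or treatment, nor say whether replicates came from separate plants. The p values therefore measure only the spread between these libraries, which may be technical. Values are TPM, the usual share of a library's transcripts, which is corrected for transcript length, so levels of different genes can be set side by side. In a whole embryo, fewer cells that express a gene and less RNA of it per cell cannot be told apart.

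As background, the young embryo seals its surface with a cuticle, and a gap in it lets material pass between embryo and endosperm. In the textbook model the embryo makes the precursor of TWS1, a small sulfated peptide. The subtilisin protease ALE1, made in the endosperm, cuts the mature peptide free, and the receptor kinases GSO1 (also called SGN3) and GSO2 in the embryo epidermis then bind it. Only where the cuticle is broken can precursor and protease meet, so signalling goes on until the surface is closed. In the endosperm the basic helix-loop-helix factors ZOU and ICE1 act as a pair that switches on ALE1 and KRS, a small cysteine-rich secreted protein needed for the sheath around the embryo. ACR4 and ALE2 are receptor kinases and DEK1 a membrane-bound calpain protease, all needed for a normal epidermis.

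Promoter windows of 3 members show the letters discussed in this paragraph: TWS1 and ACR4 because they alone of the members were called higher in heart than in 2/4-cell embryos under every alternative run, and GSO1 because its window held an L1 box. Each window is the 250 bases before the annotated gene start, 5′ to 3′ on the gene's strand, from RefSeq TAIR10.1. The windows lie at chr5:27505-27754, minus strand (TWS1), chr3:21963181-21963430, minus strand (ACR4) and chr4:10883671-10883920, plus strand (GSO1). Capitals mark an L1 box, searched on both strands as TAAATGCA or TAAATGTA, the element to which epidermal factors such as ATML1 and PDF2 are known to bind.
TWS1: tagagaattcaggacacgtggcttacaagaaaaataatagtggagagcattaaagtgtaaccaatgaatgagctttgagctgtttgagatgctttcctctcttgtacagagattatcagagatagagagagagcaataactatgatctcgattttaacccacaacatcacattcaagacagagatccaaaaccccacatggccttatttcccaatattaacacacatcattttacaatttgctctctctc
ACR4: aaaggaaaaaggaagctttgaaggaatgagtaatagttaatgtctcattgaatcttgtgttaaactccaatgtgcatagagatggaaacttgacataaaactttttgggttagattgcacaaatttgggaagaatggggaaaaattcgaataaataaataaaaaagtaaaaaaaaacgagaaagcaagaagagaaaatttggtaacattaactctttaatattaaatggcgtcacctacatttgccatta
GSO1: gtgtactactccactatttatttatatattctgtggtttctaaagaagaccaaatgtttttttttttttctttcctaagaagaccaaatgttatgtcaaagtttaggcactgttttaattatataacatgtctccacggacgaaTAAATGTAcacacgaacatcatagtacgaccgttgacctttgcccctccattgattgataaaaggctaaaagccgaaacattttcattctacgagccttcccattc
The box in GSO1 began 106 bases before the annotated start, and among the 10 members the only other window with one was that of KRS, 170 bases before its start. Of 27443 windows of the same length, 1232 (4.49%) held an L1 box. The E-box CANNTG, the hexamer class that helix-loop-helix proteins bind, stood in 15181 windows (55.3%). Its count was 2 in TWS1, GSO1 and DEK1, 1 in ACR4, GSO2, ALE1 and KRS, and 0 in ALE2, ZOU and ICE1. A match of letters is not a site of binding, and the absence of one says nothing of a factor outside the window.

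The libraries were first set against markers of the tissues they could hold. All 7 embryo markers reached 1 TPM in 17 libraries and 6 of them in 1 heart library, and they summed to 935 to 4428 TPM. Of 15 endosperm markers, EDE1 and SUC5 were detected in every library. The other 13 summed to 0.145 to 4.17 TPM in 17 libraries, and to 74.2 TPM with 6 of 13 at 1 TPM or more in 2/4-cell replicate 3. ADM was at 0 in every library, and MEA, IKU2, YUC10 and MINI3 did not exceed 0.235 TPM. The 16 seed coat markers summed to 434, 972 and 1570 TPM in the 2/4-cell libraries, 62.3 to 115 TPM at the 8-cell stage, 44.5 to 60.2 TPM at the 16-cell stage, 137 to 151 TPM at the globular stage and 132 to 139 TPM at the heart stage. At the 32-cell stage these markers gave 113, 373 and 138 TPM, and the high value was that of replicate 2. The sums do not rest on the same markers at every stage. In globular replicate 2, the 151 TPM included 86.2 TPM of SBT1.7 and 23.9 TPM of MUM4, the highest values of both. BAN, TT3 and TT4 were highest in 2/4-cell replicate 3, at 341, 314 and 476 TPM. The source of this marker RNA was not tested. Library 16-cell replicate 3 had the lowest value of its stage for 6 of the 7 members above 1 TPM, all but TWS1. Without it the F test called 6 members, and GSO2 was called higher in 8-cell against 2/4-cell embryos (0.0315 in limma). Between 15381 and 16731 genes reached 1 TPM in a library, and Pearson's r between libraries of a stage lay between 0.884 and 0.981.

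Of the 10 members, 7 reached 1 TPM in at least 3 libraries and were tested: the 6 embryo-side genes, and ICE1 of the endosperm side. ALE1, ZOU and KRS reached 1 TPM in no library. A moderated F test in limma over the 6 stages, on log2(TPM + 1) and with Benjamini-Hochberg adjustment over 18338 genes, called 5 of the 7 at an adjusted p under 0.05. The share called among all genes tested was 49.1%, so a call over the 6 stages sets the members little apart. The embryo-side peptide gene and ACR4 had the smallest adjusted p, 5.9e-09 for TWS1 and 9.2e-06 for ACR4, followed by 0.00175 for ICE1, 0.0141 for GSO1 and 0.0166 for GSO2. DEK1, at 0.0634, and ALE2, at 0.105, were not called. Under median-ratio scaling GSO1 was not called either (0.0791). With library weights all 7 were called in limma, DEK1 at 0.0026 and ALE2 at 0.0319, where 61% of all genes were. DEK1 was also called with pseudocount 5 (0.0465), without the 2/4-cell stage (0.0306), without 2/4-cell replicate 1 (0.0097) and without 16-cell replicate 1 (0.0400) or 3 (0.0426), and ALE2 without 2/4-cell replicate 3 (0.0433).

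**Figure D1:**
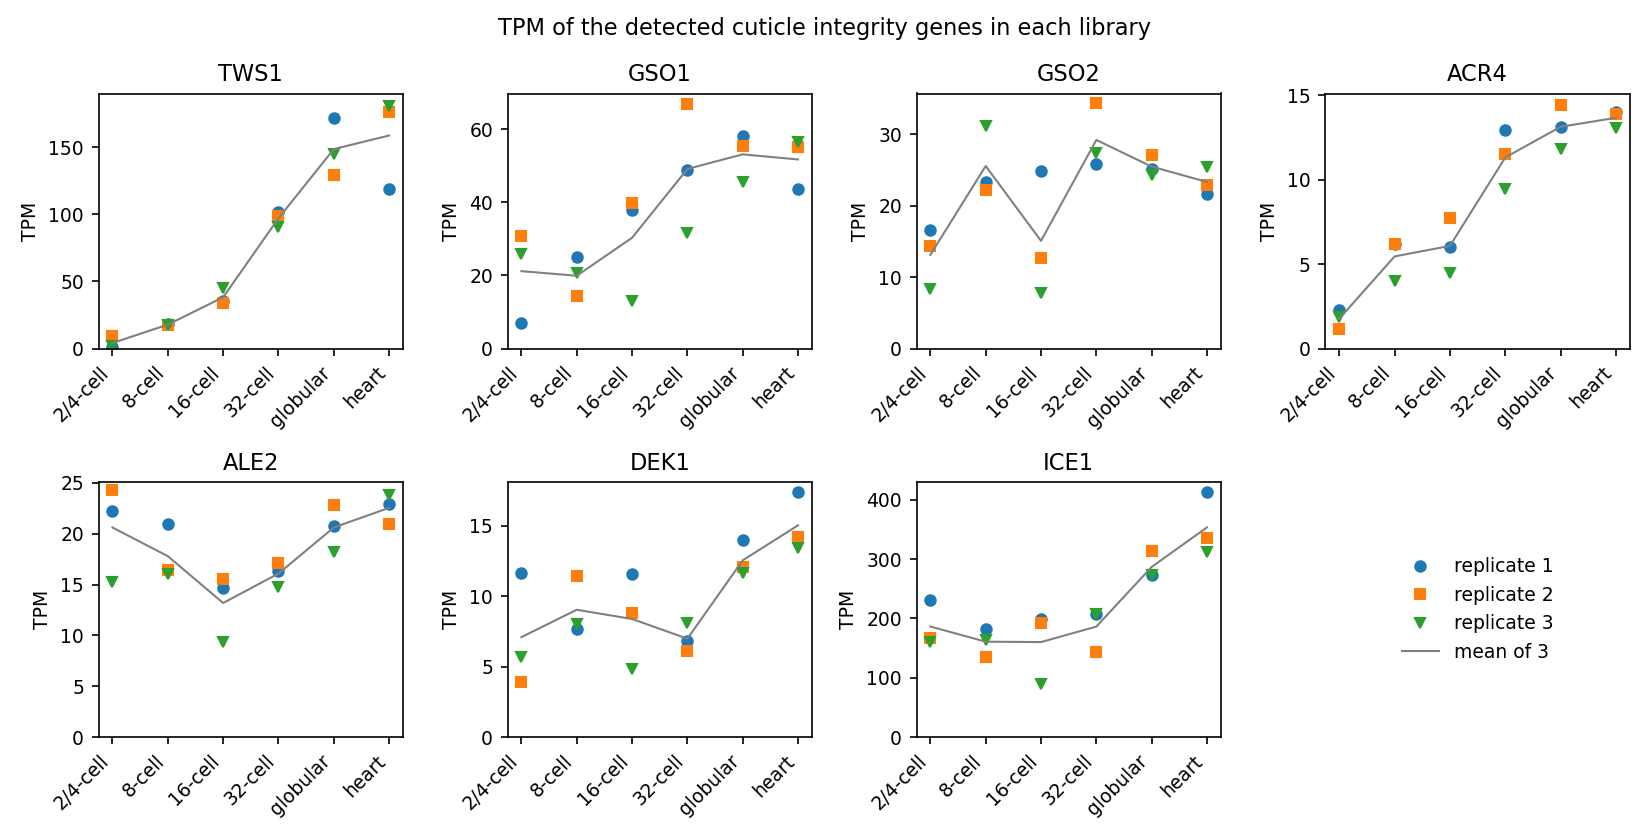
TPM of the 7 tested members (y axis, linear, starting at 0) in each of the 3 libraries of the 6 stages (x axis), with a line through the stage means. TWS1 averages 159 TPM in heart embryos, against 4.11 TPM in 2/4-cell embryos. ACR4 averages 11.3, 13.1 and 13.7 TPM at the 32-cell, globular and heart stages, and ALE2 has its lowest mean at the 16-cell stage.

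TWS1 (AT5G01075), the peptide precursor, had the largest log2 change of the 7 tested members in heart against 2/4-cell embryos. In 2/4-cell embryos its libraries held 1.37, 9.39 and 1.57 TPM, in 8-cell embryos 18.6, 17.3 and 17.5 TPM, and in 16-cell embryos 35.8, 33.6 and 45.2 TPM. In 32-cell embryos they held 102, 99.0 and 90.9 TPM, in globular embryos 172, 129 and 145 TPM, and in heart embryos 119, 176 and 181 TPM. Every library of each stage up to the globular lay above every library of the stage before it, while globular and heart libraries overlapped. The means were 4.11 ± 4.57, 17.8 ± 0.695, 38.2 ± 6.15, 97.1 ± 5.55, 149 ± 21.4 and 159 ± 34.7 TPM in stage order (SD, n = 3 each). Among all genes tested the mean stood at the percentile 94.6 in heart embryos and 26.5 in 2/4-cell embryos.

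TWS1 rose in 8-cell against 2/4-cell embryos by 2.24 ± 0.371 on the log2(TPM + 1) scale (standard error of the fit), 4.72-fold on the scale of TPM + 1, with an adjusted p of 5.8e-04 in limma. It rose again in 32-cell against 16-cell embryos by 1.33 ± 0.371, or 2.52-fold, with an adjusted p of 0.0379. That second call lay near the threshold. Without any 1 of the 16-cell or 32-cell libraries the change was 1.25 to 1.46, but the call was lost. Without globular replicate 3 or heart replicate 2 it was lost as well, with adjusted p in all these fits up to 0.121 in limma. It was also lost under median-ratio scaling (0.161) and quantile normalization (0.103). In 16-cell against 8-cell embryos the change was 1.05 at an adjusted p of 0.196, which was not a call in limma. With the 2/4-cell libraries left out of the fit that change had an adjusted p of 0.0035, and without 2/4-cell replicate 2 alone it had 0.0061. In heart against 2/4-cell embryos TWS1 was 39.4-fold higher (log2 change 5.30 ± 0.371, adjusted p 2.9e-09 in limma).

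The receptor kinase genes GSO1 and GSO2 were detected in all 18 libraries. GSO1 (AT4G20140) held 6.85, 30.8 and 25.8 TPM in 2/4-cell, 24.9, 14.3 and 20.5 TPM in 8-cell and 37.9, 39.9 and 13.1 TPM in 16-cell libraries. It held 48.9, 66.8 and 31.7 TPM in 32-cell, 58.2, 55.5 and 45.7 TPM in globular and 43.6, 55.0 and 56.6 TPM in heart libraries. Heart libraries were all above 2/4-cell libraries, but every stage overlapped the next in the order of the means. In heart embryos GSO1 was higher than in 2/4-cell embryos by 1.47 ± 0.446 on the log2 scale, 2.78-fold, with an adjusted p of 0.0112 in limma. That call depends on 2/4-cell replicate 1, the lowest library at 6.85 TPM: without it the change was 0.842 with an adjusted p of 0.0780. The annotated GSO1 gene overlaps AT4G20150, a gene on the opposite strand, by 337 of its 4350 bases. AT4G20150 averaged 265 ± 37.4 TPM in heart and 231 ± 12 TPM in 2/4-cell embryos (SD, n = 3 each). The sources used here do not state that strand was used in the quantification, so reads in those bases cannot be told apart.

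GSO2 (AT5G44700) held 16.6, 14.4 and 8.36 TPM in 2/4-cell, 23.4, 22.2 and 31.2 TPM in 8-cell and 24.9, 12.6 and 7.75 TPM in 16-cell libraries. It held 25.9, 34.4 and 27.4 TPM in 32-cell, 25.1, 27.1 and 24.3 TPM in globular and 21.6, 22.9 and 25.5 TPM in heart libraries. The highest mean was at the 32-cell stage, 29.2 ± 4.55 TPM, and the lowest at the 2/4-cell stage, 13.1 ± 4.28 TPM (SD, n = 3 each). All heart libraries lay above all 2/4-cell libraries, and the heart value was 0.83 ± 0.319 higher on the log2 scale, 1.78-fold, with an adjusted p of 0.0392 in limma. The call was lost without 2/4-cell replicate 3 (0.174), the library with endosperm marker RNA and the lowest of its stage for GSO2, and without any 1 of the heart libraries (0.0664 to 0.106). In 8-cell against 2/4-cell embryos the change was 0.95 with an adjusted p of 0.0748. In 32-cell against 16-cell embryos it was 1.04 with 0.0601, and the libraries did not overlap in either of these comparisons. The 8-cell change was called under median-ratio scaling (0.0454) and quantile normalization (0.0365), and without 2/4-cell replicate 1 (0.0387) or 16-cell replicate 1 (0.0280) or 3 (0.0315). The 32-cell change was called with library weights (0.0236), without the 2/4-cell stage (0.0297), without 2/4-cell replicate 1 (0.0455) or 3 (0.0353) and without 16-cell replicate 1 (0.0081). In 16-cell against 8-cell embryos it was -0.85 with 0.229. That value depends on the 16-cell libraries: it was -0.49 (0.545) without replicate 3, and -1.27 with a call at 0.0297 without replicate 1.

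Set against each other, GSO1 had more TPM than GSO2 in 15 of 18 libraries. The 3 exceptions were 2/4-cell replicate 1 and replicates 2 and 3 of the 8-cell stage. GSO1 made up 57.6 ± 24.9% of the summed TPM of the pair in 2/4-cell, 43.5 ± 7.04% in 8-cell, 66.4 ± 8.35% in 16-cell, 61.7 ± 6.99% in 32-cell, 67.5 ± 2.30% in globular and 68.8 ± 1.86% in heart embryos (SD, n = 3 each). The spread was widest in 2/4-cell embryos, at 29.2 to 75.6%, and narrowest at the heart stage. The sum of the pair averaged 34.3, 45.5, 45.4, 78.4, 78.6 and 75.1 TPM in stage order. TPM of the peptide gene divided by this sum averaged 0.104 ± 0.0900 in 2/4-cell, 0.40 ± 0.0697 in 8-cell, 1.12 ± 0.901 in 16-cell, 1.29 ± 0.286 in 32-cell, 1.90 ± 0.288 in globular and 2.10 ± 0.238 in heart embryos. The wide SD at the 16-cell stage came with a ratio of 2.16 in replicate 3, against 0.570 and 0.640 in the other two. These shares and ratios are descriptions and were not tested. They include any reads from the bases that GSO1 shares with AT4G20150, the part of which was not tested.

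**Figure D2:**
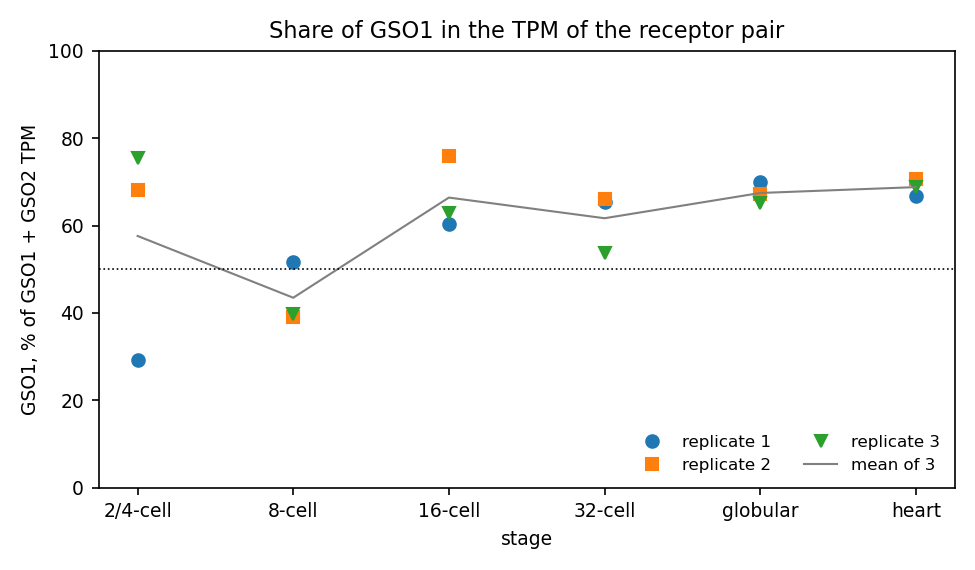
GSO1 as a percentage of the summed TPM of GSO1 and GSO2 (y axis) in each library of the 6 stages (x axis), with a line through the stage means and a dotted line at equal shares. In 15 of 18 libraries the point lies above the dotted line, and the 3 libraries of the heart stage lie closest together.

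ACR4 (AT3G59420), the receptor kinase named after a maize gene of the epidermis, had the lowest mean of the tested members at the 2/4-cell stage. In 2/4-cell replicates 1 and 3 TWS1 was lower than ACR4, at 1.37 and 1.57 TPM. ACR4 libraries held 2.28, 1.15 and 1.88 TPM at the 2/4-cell stage, 6.21, 6.19 and 3.98 TPM at the 8-cell stage and 6.01, 7.75 and 4.49 TPM at the 16-cell stage. They held 13.0, 11.6 and 9.44 TPM at the 32-cell, 13.1, 14.5 and 11.8 TPM at the globular and 14.0, 13.9 and 13.1 TPM at the heart stage. In order of the means, 8-cell libraries overlapped 16-cell libraries, and globular libraries overlapped both 32-cell and heart libraries. All heart libraries lay above all 32-cell libraries, the lowest at 13.09 TPM against the highest at 12.98 TPM. No overlap stood between the 2/4-cell and 8-cell stages or between the 16-cell and 32-cell stages. ACR4 rose in 8-cell against 2/4-cell embryos by 1.22 ± 0.295 on the log2 scale, 2.33-fold, with an adjusted p of 0.0125 in limma. Without 8-cell replicate 1 the adjusted p was 0.0566, and with library weights it was 0.129. In 32-cell against 16-cell embryos the change was 0.81 with an adjusted p of 0.119, and 0.0479 without the 2/4-cell stage. In heart against 2/4-cell embryos it rose by 2.43 ± 0.295, 5.37-fold, with an adjusted p of 2.8e-06 in limma.

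ALE2 (AT2G20300), the other receptor kinase of this branch, was called in none of the 6 comparisons of stages in limma. The means were 20.6 ± 4.79, 17.8 ± 2.74, 13.2 ± 3.32, 16.1 ± 1.23, 20.6 ± 2.36 and 22.6 ± 1.49 TPM in stage order (SD, n = 3 each), and all neighbours in the order of means overlapped. Heart libraries held 22.9, 20.9 and 23.8 TPM, against 22.3, 24.3 and 15.2 TPM in 2/4-cell libraries, and the groups overlapped. The change was 0.15 ± 0.244 on the log2 scale with an adjusted p of 0.641 in limma, and its sign turned under other scalings.

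DEK1 (AT1G55350), the calpain, held 17.4, 14.2 and 13.4 TPM in heart libraries, against 11.7, 3.94 and 5.66 TPM in 2/4-cell libraries. Its stage means were 7.09 ± 4.05, 9.03 ± 2.07, 8.37 ± 3.38, 6.98 ± 0.998, 12.5 ± 1.24 and 15 ± 2.11 TPM in stage order (SD, n = 3 each). Globular and heart had the highest means, and all globular libraries lay above all 8-cell libraries, the next in the order of means. Globular libraries did overlap the 2/4-cell stage, with 11.63 TPM in globular replicate 3 and 11.66 TPM in 2/4-cell replicate 1. DEK1 was higher in heart than in 2/4-cell embryos by 1.09 ± 0.350 on the log2 scale, 2.13-fold, with an adjusted p of 0.0158 in limma. The call was lost without 2/4-cell replicate 2 (0.0800) or heart replicate 1 (0.0632). In globular against 32-cell embryos the change was 0.77 with an adjusted p of 0.329, and with library weights it was 0.71 and called (0.0126). Its annotation shares 25 of 11371 bases with AT1G55340 on the other strand.

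On the endosperm side the 4 members split into 1 abundant gene and 3 that were near 0. ICE1 (AT3G26744), which is also known as a factor of cold response and stomata, held 231, 167 and 160 TPM in 2/4-cell, 183, 135 and 164 TPM in 8-cell and 199, 192 and 89.0 TPM in 16-cell libraries. It held 207, 143 and 208 TPM in 32-cell, 274, 314 and 273 TPM in globular and 414, 335 and 311 TPM in heart libraries. Its stage means lay between the percentiles 95.1 and 97.9 of all genes tested, the highest of the members at every stage. All globular and heart libraries were above every library of the 4 earlier stages. ICE1 was higher in heart than in 2/4-cell embryos by 0.93 ± 0.247 on the log2 scale, 1.90-fold, with an adjusted p of 0.0049 in limma, and 0.0623 under median-ratio scaling. In globular against 32-cell embryos the change was 0.64 with an adjusted p of 0.232, and with library weights it was 0.54 and called (0.0095).

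ALE1 (AT1G62340), the protease that frees the peptide, was listed at 0 in 13 of 18 libraries. Its highest value was 0.574 TPM, in 32-cell replicate 2, the library of its stage with the most seed coat marker RNA, and the 4 other values above 0 were 0.0267 to 0.132 TPM. ZOU (AT1G49770), the partner of ICE1, was listed at 0 in 15 libraries and reached 0.225 TPM at most, in globular replicate 3. KRS (AT1G50650) was listed at 0 in 16 libraries, and its values above 0 were 0.256 TPM in heart replicate 1 and 0.156 TPM in heart replicate 3. Of the 18 libraries, those listed the fewest genes of all at 0, with 5271 in heart replicate 1 and 6464 in heart replicate 3. In 2/4-cell replicate 3, where the endosperm markers PHE1, AGL40, AGL36, FWA, AGL62 and AGL28 stood at 19.3, 18.6, 12, 9.52, 9.22 and 4.52 TPM, ALE1 and KRS were listed at 0 and ZOU at 0.0756 TPM. In the same library ICE1 was at 160 TPM, the lowest of its stage. Depth is unknown from TPM, so how low a level these libraries could have shown cannot be given.

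**Figure D3:**
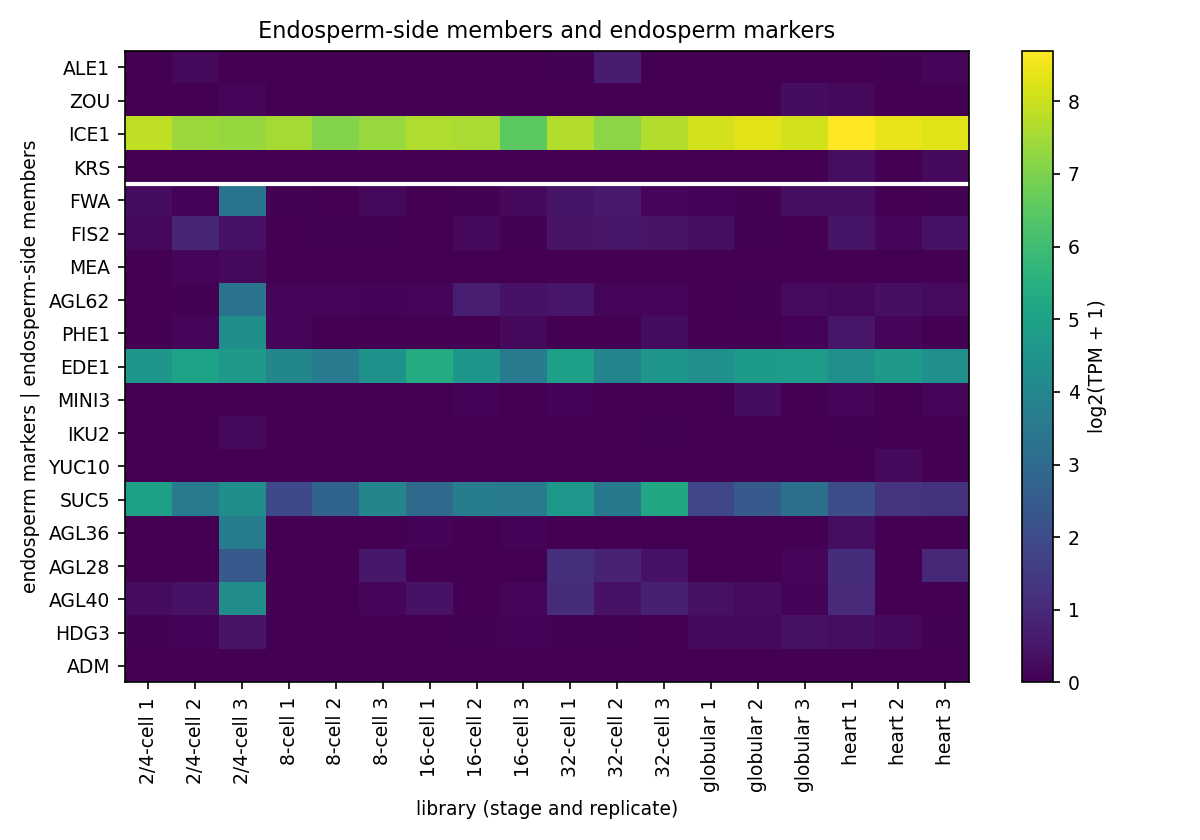
Heat map of log2(TPM + 1) for the 4 endosperm-side members (above the white line) and 15 endosperm markers (below it) in the 18 libraries, ordered by stage and replicate. ICE1 is the brightest row, EDE1 and SUC5 are above 1 TPM in every library, ALE1, ZOU and KRS stay below 1 TPM throughout, and 6 further markers stand out in 2/4-cell replicate 3.

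Taking the members as a list, the comparison of heart with 2/4-cell embryos called 6 of 7 higher and 0 lower. Of all genes tested, 34.5% were called higher there. Libraries of the heart stage all lay above those of the 2/4-cell stage for 6 of 7 members, against 39.2% of all genes. The median log2 change was 1.09 over the 7 members and 0.46 over all genes tested, so the changes are to be read relative to that shift. With libraries brought to a common centre by median-ratio scaling, which moves the median of all genes to 0.03, the calls were 2 of 7, TWS1 (4.85) and ACR4 (2.02). Under it GSO1 changed by 1.0 (adjusted p 0.0644), DEK1 by 0.65 (0.118), ICE1 by 0.44 (0.0623), GSO2 by 0.37 (0.320) and ALE2 by -0.32 in limma. Quantile normalization left 4 of 7 called and took the calls of GSO2 (0.362) and DEK1 (0.205). Without 2/4-cell replicate 3, which held the most endosperm and seed coat marker RNA, the count was 5 of 7. Leaving it out keeps the difference in seed coat markers. They summed to 434 and 972 TPM in the other 2/4-cell libraries and to 132 to 139 TPM in heart libraries. That difference and the stage cannot be told apart here, and the part that marker RNA of other tissues played in these levels was not tested.

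**Figure D4:**
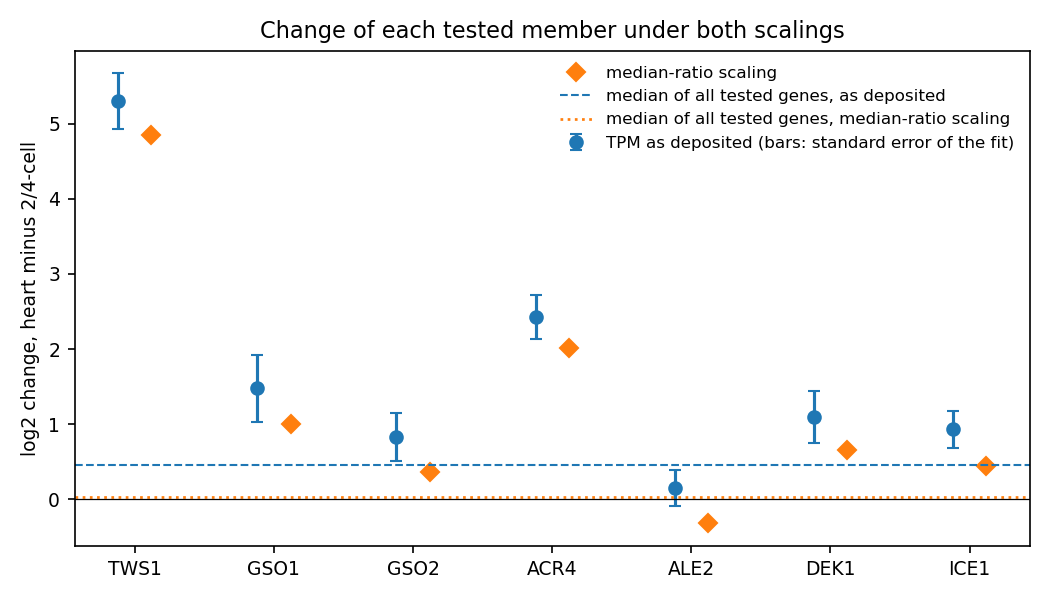
Change in log2(TPM + 1) of the 7 tested members in heart minus 2/4-cell embryos (y axis), as deposited with the standard error of the fit (circles) and after median-ratio scaling (diamonds), with the median of all tested genes as a dashed and a dotted line. TWS1 (5.30 and 4.85) and ACR4 (2.43 and 2.02) stand above both medians under both scalings, and ALE2 is above 0 as deposited and below 0 after scaling.

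Between neighbouring stages fewer members passed. In 8-cell against 2/4-cell embryos 2 of 7 were called higher, TWS1 and ACR4, where 3.77% of all genes were. The libraries did not overlap for 3 of 7, with GSO2 as the third, where that held upward for 9.16% of all genes. In 32-cell against 16-cell embryos 1 of 7 was called higher, TWS1, where 5.37% of all genes were, and libraries did not overlap for 3 of 7, where that held upward for 21.6%. In limma 0 of 7 members were called in 16-cell against 8-cell embryos, in globular against 32-cell embryos and in heart against globular embryos. The shares called among all genes there were 1.56%, 1.94% and 0.578%. Libraries did not overlap for 2, 4 and 0 of 7 members in the same order. In 16-cell against 8-cell embryos these were TWS1 (higher) and ALE2 (lower). In globular against 32-cell embryos they were TWS1, ALE2, DEK1 and ICE1, all higher. The share of all genes without overlap is not given for these comparisons, so these counts cannot be set against it. At an unadjusted p under 0.05 the members counted 2, 2 and 0 of 7 in those 3 comparisons, where the shares of all genes were 12.3%, 14.1% and 5.35%. With library weights 0, 3 and 0 of 7 were called in limma, where the shares of all genes were 2.04%, 18.9% and 10.9%. The comparisons of neighbouring stages share libraries, since each stage but the ends enters a pair of them.

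Of 22 other genes of the pathway, 14 were tested, and limma called 4 of the 14 in the F test over the 6 stages, where 49.1% of all genes were. In heart against 2/4-cell embryos 4 of the 14 were called higher and 1 lower, where 34.5% and 12.3% of all genes were. The median log2 change was 0.36 over the 14, below the 0.46 of all genes tested. The epidermal homeobox factor PDF2 averaged 94.0 ± 19.3 TPM in heart and 25.5 ± 4.20 TPM in 2/4-cell embryos (SD, n = 3 each), a log2 change of 1.84 with an adjusted p of 1.1e-05. It was also called higher in 8-cell against 2/4-cell embryos, by 1.28 with an adjusted p of 0.00264 in limma. Its close relative ATML1 averaged 71.1 ± 10.9 TPM in heart and 88.9 ± 22.0 TPM in 2/4-cell embryos and was not called in the F test; it is also 1 of the 7 embryo markers. Without the 2/4-cell stage the F test did not call PDF2 (0.181). SCRM2, the paralogue of ICE1, averaged 25.1 ± 1.27 TPM in heart and 3.81 ± 1.31 TPM in 2/4-cell embryos, a log2 change of 2.47 with an adjusted p of 9.0e-06. Between the early stages SCRM2 was called lower in 8-cell against 2/4-cell embryos (-1.16, adjusted p 0.0351) and higher in 16-cell against 8-cell embryos (2.14, adjusted p 0.00234). The first of these calls was lost without 2/4-cell replicate 2, 8-cell replicates 1 or 3, globular replicates 2 or 3 or any 1 heart library (adjusted p up to 0.121). SCRM2 made up 6.72 ± 0.995% of the summed TPM of ICE1 and SCRM2 in heart and 0.740 ± 0.435% in 8-cell embryos (SD, n = 3 each).

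The co-receptor kinases SERK1, SERK2 and BAK1 were detected in all 18 libraries. SERK2 (0.83, adjusted p 0.0405) and BAK1 (1.49, adjusted p 0.0133) were called higher in heart than in 2/4-cell embryos, and both calls were lost under median-ratio scaling and under quantile normalization. SERK2 also missed the threshold without 2/4-cell replicate 3 or any 1 heart library, and BAK1 without 2/4-cell replicate 1 or heart replicate 1. AT5G04030 was the 1 gene called lower: it averaged 0.925 ± 1.60 TPM in heart embryos and 15.7 ± 3.63 TPM in 2/4-cell embryos, a log2 change of -3.40 with an adjusted p of 4.1e-05, and all 3 globular libraries were listed at 0. It was also called lower in 32-cell against 16-cell embryos (-2.05, adjusted p 0.0243 in limma). This call was lost without 32-cell replicate 1 (0.161) or any 1 of the 16-cell libraries (0.0545 to 0.0719). Pseudocount 0.1 (0.112), no filter (0.0546) and a fit of only the 2 stages (0.0937) lost it too. TPST, the enzyme that sulfates tyrosine in peptides of this kind, held 9.48 to 24.7 TPM over the 18 libraries. The kinases MKK4, MKK5, MPK3 and MPK6 of the cascade were detected in every library, from 6.88 TPM for MPK3 to 54.8 TPM for MPK6, and none of the 4 was called in the F test. At an unadjusted p under 0.05 that test in limma counted 5 of the 14 pathway genes, where the share of all genes was 56.6%. SPCH, MUTE and FAMA, partners of ICE1 in stomata, reached 0.345 TPM at most.

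The genes most like each called member were those with the highest Pearson r over the 18 libraries on log2(TPM + 1), which is a description, since the 3 libraries of a stage share it and all genes share a library's scale. For TWS1 they were APK1A (0.972), CYCD3;1 (0.970) and MAKR5 (0.970), and for ACR4 they were GRF9 (0.969), PAN (0.969) and GRF2 (0.968). For ICE1 they were TPR1 (0.960), HMGS (0.956) and RGLG1 (0.954). The receptor genes had AT1G60700 (0.959), AT1G35510 (0.944) and BRG2 (0.937) for GSO1, and AT4G01090 (0.902), SGB1 (0.872) and PMP (0.866) for GSO2.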

How the data were processed

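The authors deposited 1 table of TPM per gene for 18 libraries of poly(A) RNA, with cDNA amplified by a kit for very small amounts, per the labels. Reads were trimmed with Trim Galore 0.6.6 and quantified with kallisto 0.44.0 on TAIR10, per the submitters' processing notes. The step that summed transcripts per gene is not given in the sources used here. Each column sums to 1000000, so depth and counting error are unknown.

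Of 27564 genes, the 18338 with 1 TPM in no fewer than 3 libraries were tested on log2(TPM + 1) with limma 3.58.1 (R 4.3.3), 1 mean per stage and a variance trend. Tests were two-sided, with Benjamini-Hochberg adjustment over all genes tested and calls at an adjusted p under 0.05. Folds are of TPM + 1 and understate the change of low genes. The procedure was tested on simulated data. The alternatives were pseudocounts of 0.1 and 5, no filter, median-ratio scaling, quantile normalization, library weights, a replicate block, a fit of only the 2 stages compared and leaving out each library. Leaving out the whole 2/4-cell stage was added after seeing the data. Reference names matched 27445 identifiers. Promoters came from TAIR10.1, the table giving no coordinates. The members and lists were chosen with earlier results of these data known. All 10 members and any gene of the pathway list could be named, and the 3 genes of highest Pearson r for each member called in the F test.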

Additional observations from a re-analysis of the deposited data

How the results depend on the processing

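Of 14 called results of members, 331 of 365 values under the alternatives kept the call and any direction, 34 lost the call and 0 reversed. Many of these values could not reverse, since an F test has no direction. The log2 change of a comparison is also fixed when a library of another stage is left out. The block, no filter and a fit of only the 2 stages compared leave it unchanged as well. These counts are therefore no measure of how stable the directions are. Uncalled results of members were counted only for the F test, heart against 2/4-cell embryos, or an unadjusted p under 0.05 in limma. Of the 10 such results, 24 of 266 values gained a call, 239 stayed uncalled without a change of direction and 3 reversed. The other uncalled results of members were not counted. Among the 10 counted results, the 3 reversals were all of ALE2 in heart against 2/4-cell embryos, uncalled throughout. The values were -0.32 with median-ratio scaling, -0.33 with quantile normalization and -0.0464 without 2/4-cell replicate 3. Leaving out 1 library gave -0.0464 to 0.276. Of 340 values for the called pathway genes, 36 lost the call. The causes were not tested.

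Members called in heart against 2/4-cell embryos (6) were 2 with median-ratio scaling and 3 with only the 2 stages fitted. In 32-cell against 16-cell embryos (1) they were 0 with pseudocount 0.1, no filter, median-ratio scaling or quantile normalization, 2 with library weights and 3 without the 2/4-cell stage. In 8-cell against 2/4-cell embryos (2) they were 1 with library weights and 0 with the 2 stages alone. In 16-cell against 8-cell embryos (0) there was 1 without the 2/4-cell stage, and in globular against 32-cell embryos (0) there were 3 with library weights and 1 with the 2 stages alone. Fitting 2 stages alone leaves fewer libraries to estimate the spread.

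Over all genes, heart against globular embryos gave 106 calls, and 47 with pseudocount 0.1, 169 with pseudocount 5, 219 with no filter and 2005 with library weights. Globular against 32-cell embryos gave 355, and 3465 with library weights, 1501 with the 2 stages alone and 649 without the 2/4-cell stage. For 32-cell against 16-cell embryos there were 1111, and 736 with quantile normalization, 659 with the 2 stages alone and 1890 without the 2/4-cell stage. For 16-cell against 8-cell embryos there were 286, and 170 with no filter, 0 with the 2 stages alone and 617 without the 2/4-cell stage. For 8-cell against 2/4-cell embryos there were 1608, and 592 with library weights and 67 with the 2 stages alone.

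Leaving out 1 library at a time gave 953 (without 8-cell replicate 1) to 2224 calls in 8-cell against 2/4-cell embryos, 107 (without 16-cell replicate 2) to 426 in 16-cell against 8-cell, 528 (without 32-cell replicate 1) to 1431 in 32-cell against 16-cell, 131 (without globular replicate 2) to 494 in globular against 32-cell and 26 (without heart replicate 3) to 124 in heart against globular. Members counted 1 to 3, 0 to 1, 0 to 2, 0 to 0 and 0 to 0 in the same order, 4 to 6 in heart against 2/4-cell embryos and 5 to 6 in the F test.

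With the replicate number as a block the members called were 5 in the F test, 6 in heart against 2/4-cell, 2 in 8-cell against 2/4-cell and 1 in 32-cell against 16-cell embryos, as without it. Over all genes the block gave 9176, 8742, 1590 and 1123 calls in these tests. Deviations of same-numbered libraries correlated at -0.139 to 0.210, and no comparison had all 3 pairs over 0.1. Deviations from means of 3 libraries cannot tell whether same-numbered libraries share more than a number, and the labels do not say. Depth is unknown, so values listed at 0 carry no limit.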
